A study of Rattus norvegicus with 6 samples.

Results

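A set of 9 genes of bone matrix and of the osteoblast, the cell that builds bone, were followed in the hippocampus of Aβ1-42-injected rats. They were Bglap, Ibsp, Spp1, Sparc, Col1a1, Col1a2, Runx2, Sp7 and Alpl. The genes were chosen by their function after Bglap and Ibsp had been seen to be higher in AD than in Sham in these same arrays, so the differences between the groups are given for these 9 genes as a description. No p-value is given for them, and the counts of calls among them come from the fit over all probes and support nothing. A probe was taken as a member if the accession that the array file gives it belongs to one of these genes in RefSeq. Of the 9 genes, 8 had such a probe, among 15168 genes that the array's accessions name. These 8 genes had 9 probes, among 30367 on the array, and all 9 were among the 22768 that were tested, having signal well above background on 3 arrays or more. Runx2, the transcription factor that commits cells to the osteoblast lineage, had no probe matched by accession and was not analysed here.

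Bone is a collagen scaffold that osteoblasts secrete and then mineralise. Type I collagen, built from the chains encoded by Col1a1 and Col1a2, forms the fibres, Alpl supplies phosphate for the mineral, and non-collagenous proteins such as osteocalcin, bone sialoprotein, osteopontin and osteonectin bind the mineral, the fibres or cell-surface integrins. Several of these genes are also active outside bone. Astrocytes and endothelial cells of the brain make osteonectin, activated microglia and macrophages make osteopontin, fibroblasts of the meninges and vessel walls make type I collagen, and tissue-nonspecific alkaline phosphatase is present in brain microvessels and on neurons, whereas osteocalcin and bone sialoprotein are regarded as products of mineralising tissue.

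The AD group held 3 hippocampal tissues of adult male SD (Sprague Dawley) rats given oligomers of Aβ1-42, the peptide of Alzheimer plaques, into the lateral ventricles. The Sham group held 3 such tissues of male SD rats given the vehicle through a cannula on both sides, so the animals of both groups had undergone an intracerebroventricular injection. Injection of oligomers models exposure to Aβ and carries no Alzheimer mutation. The labels do not state that each tissue was from a separate animal, and the p-values below therefore measure the spread between these tissue samples.

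Expression was read on single-colour Agilent arrays, 1 per tissue. A level is the log2 processed signal of a probe minus that array's 75th percentile, so that 0 marks the 75th percentile and a difference of 1 is a doubling. Probes bind with different strength, so levels, sums over gene lists and the distance between probes of 1 gene were compared between arrays only. A sum over a list adds linear levels and gives most weight to its brightest probes. Pairs of arrays correlated at 0.976 to 0.994, and 70.7% to 79.7% of probes per array had signal well above background. The 75th percentile of the signal was 795 to 932 on the AD arrays and 429 to 755 on the Sham arrays, with the lowest on Sham replicate 3. The 3 AD arrays were scanned together, Sham replicates 1 and 2 were scanned together on the same day, and Sham replicate 3 was scanned alone on another day. No scan held arrays of both groups, so an effect of the AD scan cannot be told apart from a difference of the AD group. All 12 measured markers of hippocampal neurons had signal well above background on every array. In bulk tissue, fewer cells of a type and less RNA per cell cannot be told apart.

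The promoters of Bglap and Ibsp are shown because these are the genes that were called higher in AD and prompted the set. The 250 bases before the annotated start of each gene are from RefSeq, build GRCr8. For Bglap they are chr2:176137319-176137568 and for Ibsp chr14:5757243-5757492, each read on the minus strand. Capitals mark the Runx motif TGTGGT or its complement ACCACA, the TATA box TATAAA or TTTATA, and the CCAAT box CCAAT or ATTGG.
Bglap: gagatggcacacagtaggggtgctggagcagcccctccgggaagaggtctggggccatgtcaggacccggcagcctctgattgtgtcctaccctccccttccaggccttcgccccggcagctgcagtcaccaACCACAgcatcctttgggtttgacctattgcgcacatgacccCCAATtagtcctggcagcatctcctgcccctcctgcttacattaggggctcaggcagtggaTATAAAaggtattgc
Ibsp: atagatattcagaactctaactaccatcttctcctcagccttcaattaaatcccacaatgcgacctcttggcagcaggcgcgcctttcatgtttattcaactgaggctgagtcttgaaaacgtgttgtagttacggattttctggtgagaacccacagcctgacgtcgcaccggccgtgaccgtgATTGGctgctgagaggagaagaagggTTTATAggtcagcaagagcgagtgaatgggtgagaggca
The Bglap window held ACCACA 118 bases, CCAAT 76 bases and TATAAA 15 bases before the annotated start. The Ibsp window held ATTGG 65 bases and TTTATA 39 bases before the start, and no Runx motif of these letters. Among all 33469 promoter windows of the same length, 14.5% held the Runx motif on either strand, 12.9% the TATA box and 34.02% the CCAAT box. Windows were at hand for 7 of the 9 genes. The Runx motif was in 3 of them (Bglap, Sparc and Runx2), the TATA box in 4 (Bglap, Ibsp, Spp1 and Col1a2) and the CCAAT box in 3 (Bglap, Ibsp and Col1a2). The AP-1 motif TGACTCA or TGAGTCA, in 4.05% of all windows, was in 0 of the 7. These matches describe the letters only, and binding of a factor was not measured.

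Bglap encodes osteocalcin, a small protein of mineralised matrix that is carboxylated with the help of vitamin K and also circulates as a hormone. Its probe A_43_P15447 (chromosome 2) had levels of -1.45, -0.48 and -0.92 in AD replicates 1 to 3, against -5.45, -5.00 and -6.07 in Sham replicates 1 to 3. Every AD array was far above every Sham array, with the highest value on AD replicate 2. Group means were -0.95 ± 0.49 in AD and -5.50 ± 0.54 in Sham (SD, n = 3 each), a log2 difference of 4.56 ± 0.35 (SE of the limma fit), or 23.5-fold. The processed signals behind these levels were 327, 572 and 493 in AD and 17.2, 23.6 and 6.41 in Sham. On the Sham arrays the probe was well above background on replicate 2 only, so the fold rests on 2 Sham spots that were not.

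The fold of Bglap depended on how background was removed, and its Sham spots were nearly dark. The foreground intensity of the spot before any subtraction was 363, 585 and 503.5 in AD, against 60, 64 and 46 in Sham, where spots not well above background had median foregrounds of 48, 48 and 41. The Sham foregrounds of Bglap were thus close to those of unlit spots, whereas the AD spots were brighter than 53.5% to 62.4% of all spots on their arrays. The normexp correction subtracts the local background from the foreground, models the background that remains and adds an offset of 50 to every spot. With it the log2 difference was 2.20, from levels of -1.35, -0.52 and -0.93 in AD and -3.33, -3.27 and -2.80 in Sham. The groups stayed apart, with a much smaller difference. Leaving out any 1 array gave differences of 4.27 to 4.81.

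Ibsp encodes bone sialoprotein, an acidic integrin-binding protein that nucleates mineral and is made by mature osteoblasts. Its probe A_44_P255216 (chromosome 14) had levels of -3.26, -4.29 and -3.79 in AD, against -6.32, -6.28 and -6.37 in Sham. The groups did not overlap, and the AD array with the lowest Ibsp, replicate 2, was the one with the highest Bglap. Processed signals were dim, at 93.5, 40.7 and 67.4 in AD and 9.40, 9.73 and 5.20 in Sham. The probe was flagged well above background on 3 arrays of AD and on 0 of Sham, so that Sham gives only an upper bound and the probe passed the filter on dim probes only through AD. The measured log2 difference was 2.54 ± 0.25 (SE, n = 3 each), and AD was at least 4.02-fold higher when each dim Sham spot was raised to the lowest signal well above background on its array. This bound holds for the processed signal only. Foreground intensities were 149, 96 and 116 in AD and 54, 53 and 42 in Sham. With normexp correction the levels were -2.57, -2.99 and -2.88 in AD and -3.49, -3.54 and -3.02 in Sham, and the log2 difference was 0.54. Under that correction the lowest AD level was 0.03 above the highest Sham level.

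Spp1 and Sparc, the other non-collagenous matrix genes, differed from this pattern. Spp1 encodes osteopontin, a phosphorylated integrin ligand of bone that macrophages and microglia also secrete. Its probe A_44_P491796 (chromosome 14) had levels of -2.60, -2.41 and -2.57 in AD, against -0.66, 1.16 and -3.24 in Sham. The AD arrays lay close together and within the Sham range, with Sham replicates 1 and 2 above them and Sham replicate 3 below. The log2 difference was -1.61 ± 1.03 (SE, n = 3 each), so its error covered most of the change.

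The Sham spread of Spp1 was 4.40 on the log2 scale, 21.1-fold between replicates 2 and 3, against 0.19 across the AD arrays. It was wider than the Sham spread of 99.9% of tested probes, for which the median was 0.33. The probe is printed 10 times on each array, and none of these spots was flagged as an outlier. The SD between the 10 spots was 0.17 to 0.34 on the log2 scale, small beside the gaps between Sham arrays. On Sham replicate 2 the spots ran from 1455 to 2223 in processed signal, and on Sham replicate 3 from 30.1 to 62.9. Without Sham replicate 3 the log2 difference became -2.78, a 6.85-fold lower level in AD, and without Sham replicate 2 it became -0.58. Its size thus turned on single Sham samples.

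**Figure D1:**
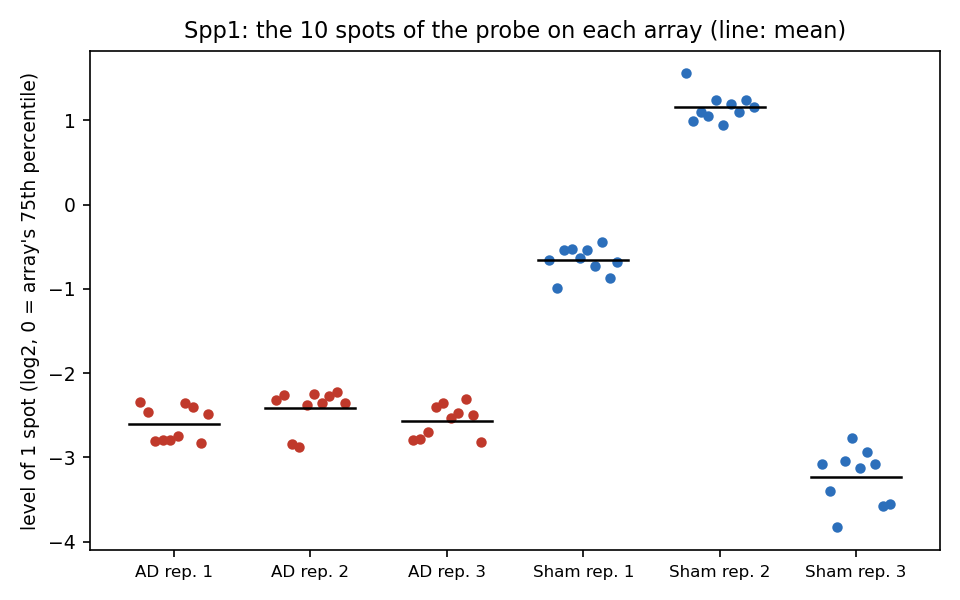
Level of each of the 10 Spp1 spots on each array (y axis, log2, 0 = 75th percentile of the array), for AD replicates 1 to 3 and Sham replicates 1 to 3 (x axis). Lines are means. The spots of an array keep together (SD 0.17 to 0.34), while the Sham arrays are up to 4.40 apart.

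Sparc encodes osteonectin, a collagen- and mineral-binding protein that is plentiful in bone and in brain endothelium and glia. Its probe A_44_P451357 (chromosome 10) had levels of 4.03, 4.01 and 4.02 in AD, against 3.98, 3.57 and 3.64 in Sham. The AD arrays were nearly identical and all lay above the Sham arrays, by a narrow margin over Sham replicate 1. The log2 difference was 0.29 ± 0.13 (SE, n = 3 each), or 1.22-fold.

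**Figure D2:**
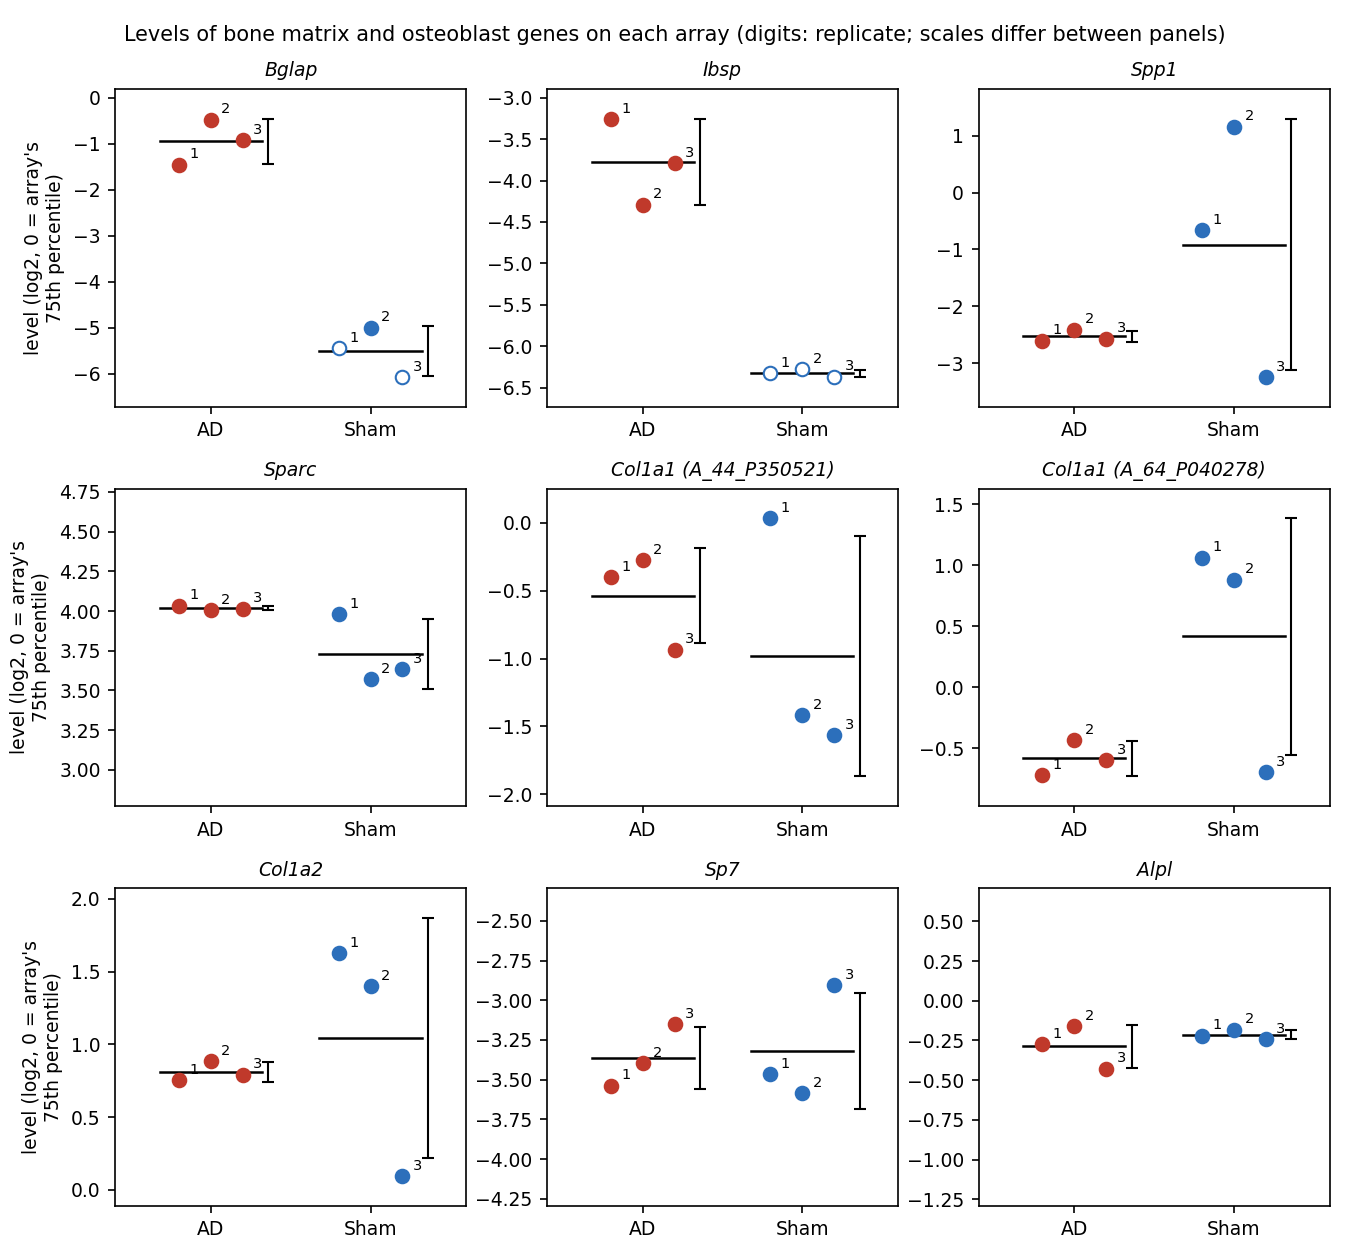
Levels of the 9 probes on each array (y axes, log2, 0 = 75th percentile of the array), AD left and Sham right in each panel. Filled points are well above background, open points are not, digits give the replicate, and lines and bars are mean and SD (n = 3). Bglap and Ibsp are separated between the groups, while Spp1, Col1a2 and both Col1a1 probes are spread out across the Sham arrays.

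Type I collagen was also spread across the Sham arrays, with each probe lowest on Sham replicate 3, as Spp1 was. The collagen probes were highest on Sham replicate 1, and Spp1 on Sham replicate 2. Col1a2, the α2 chain, had levels of 0.76, 0.89 and 0.79 in AD and 1.63, 1.40 and 0.10 in Sham (A_43_P12783, chromosome 4). Sham replicates 1 and 2 were above all AD arrays and Sham replicate 3 was below them. The log2 difference was -0.23 ± 0.39, and -0.70 without Sham replicate 3. The α1 chain, Col1a1 (chromosome 10), had 2 probes that did not move together (r = 0.17 over the 6 arrays). Probe A_64_P040278 had levels of -0.72, -0.43 and -0.60 in AD and 1.06, 0.88 and -0.70 in Sham, again high on Sham replicates 1 and 2. Its log2 difference was -1.0 ± 0.46, and -1.56 without Sham replicate 3, when AD was 2.94-fold lower. Probe A_44_P350521 had levels of -0.40, -0.28 and -0.93 in AD and 0.03, -1.42 and -1.56 in Sham, high on Sham replicate 1 only. Its log2 difference was 0.45 ± 0.45, opposite in sign. The 2 probes disagreed most on Sham replicate 2, where the distance between them was -2.30, against 0.32, 0.16 and -0.34 on the AD arrays. No direction can therefore be given for Col1a1 (SE, n = 3 each).

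Across the 6 arrays Spp1 followed the Col1a1 probe A_64_P040278 (r = 0.90) and Col1a2 (r = 0.82), which followed each other (r = 0.88). Sparc followed the other Col1a1 probe (r = 0.84). Bglap and Ibsp, both selected for being high in AD, had opposite orders within the AD arrays. These correlations are descriptions over 6 arrays that share 2 groups and 3 scans. The gene Col3a1, encoding a fibrillar collagen that fibroblasts make beside type I, gave levels of -1.37, -1.44 and -1.35 in AD and -0.10, -0.23 and -2.05 in Sham, with Sham replicates 1 and 2 above all AD arrays and Sham replicate 3 below them, as for Col1a2. Over the 12 markers of meningeal fibroblasts with a probe, of which 11 were tested, the median gene deviated from its Sham mean by -0.16, -0.01 and -0.20 on the AD arrays and by 0.31, 0.12 and -0.29 on the Sham arrays. Their summed level, in units of the 75th percentile, was 8.37 to 8.63 in AD and 7.27 to 8.44 in Sham. A part of meningeal tissue or of the scan in the collagen and Spp1 values was not tested.

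Sp7 and Alpl, the osteoblast transcription factor and enzyme, showed no separation. Sp7, also called osterix, is needed for osteoblast differentiation downstream of Runx2. Its probe A_64_P019190 (chromosome 7) had levels of -3.54, -3.39 and -3.15 in AD and -3.47, -3.59 and -2.90 in Sham. The groups overlapped, and the log2 difference was -0.04 ± 0.21 (SE, n = 3 each). Alpl, tissue-nonspecific alkaline phosphatase, had levels of -0.28, -0.16 and -0.43 in AD and -0.22, -0.18 and -0.24 in Sham (A_43_P11684, chromosome 5). These values overlapped as well, and the log2 difference was -0.07 ± 0.10. Both probes had signal well above background on each array.

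Of the 9 probes, 2 were called higher in AD (Bglap and Ibsp; limma, Benjamini-Hochberg adjusted p under 0.05 over all tested probes), where 4.15% of all tested probes were, and 0 were called lower, where 8.4% were. At an unadjusted p under 0.05 the counts were likewise 2 and 0, as with the methods' t-test after adjustment. All 3 AD levels were above all 3 Sham levels for 3 of the 9 probes (Bglap, Ibsp and Sparc), as for 15.6% of tested probes, and below them for 0 of the 9, as for 23.4%. Without Sham replicate 3, 2 were called higher and 3 lower (Spp1, Col1a2 and Col1a1 by A_64_P040278), where 8.78% and 10.8% of tested probes were called. Since the genes were selected on this contrast, nothing is read from these counts. Without any 1 of the other 5 arrays, or with scan as a random block, 0 of the 9 probes were called in either direction.

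**Figure D3:**
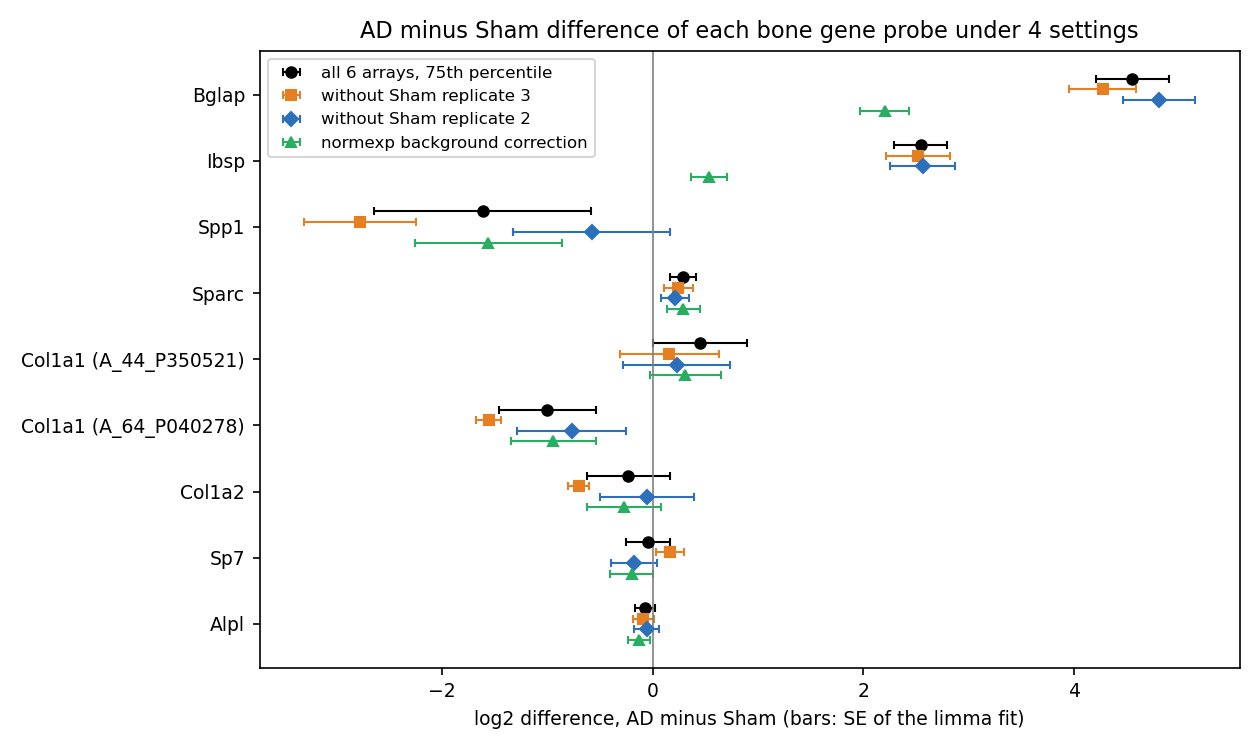
Log2 difference of AD minus Sham for each of the 9 probes (x axis, bars are the SE of the limma fit) with all arrays, without Sham replicate 3, without Sham replicate 2 and with normexp correction. Bglap stays at or above 2.20 and Ibsp moves to 0.54 under normexp, while Spp1 runs from -2.78 to -0.58.

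Neighbouring genes were read to see whether the Bglap locus as a whole was high. In the RefSeq order of GRCr8, Bglap lies between Paqr6, a progestin receptor family gene on the opposite strand, and Pmf1, a kinetochore gene on the same strand. Paqr6 had levels of -4.59, -4.18 and -4.22 in AD and -4.19, -4.55 and -3.52 in Sham, a log2 difference of -0.25 ± 0.28 (limma adjusted p = 0.579), and the groups overlapped. Pmf1 had no signal well above background (0 arrays) and was not tested. Ibsp and Spp1 belong to the same cluster of acidic phosphoprotein genes, with Mepe between them and Dmp1 beyond Ibsp. Mepe had levels of -1.72, -1.78 and -1.72 in AD and -1.89, -1.44 and -1.25 in Sham (log2 difference -0.22 ± 0.17, adjusted p = 0.438), and Dmp1 was too dim on every array to be tested. Neither tested neighbour passed, which sets no test against Bglap or Ibsp.

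Beyond the 9 genes, 70 others that act in bone formation were read from 6 lists. Of these, 61 had a probe and 53 were tested, with 6 called higher in AD (11.3%, against 4.08% of all tested named genes) and 3 called lower (5.66%, against 10.8%). At an unadjusted p under 0.05, 12 were higher and 7 lower. The median log2 difference of the 53 was 0.04, and that of all 11949 tested named genes was -0.05. Without Sham replicate 3, 9 were called higher and 6 lower, where 8.64% and 13.6% of named genes were called, and without any 1 of the other 5 arrays, or with scan as a random block, 0 were called. The counts describe the lists and show nothing particular to them.

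Among 11 tested genes of other bone matrix proteins, 2 rose and 0 were called lower (1 at an unadjusted p under 0.05), with a median of -0.22. Ogn, osteoglycin, a small leucine-rich proteoglycan first isolated from bone, had levels of 0.65, 0.41 and 0.92 in AD and -0.09, -0.29 and -0.11 in Sham, a difference of 0.82 ± 0.15 (adjusted p = 0.0276). Omd, osteomodulin, a mineral-binding proteoglycan of osteoblasts, had -1.31, -1.48 and -1.66 in AD and -2.06, -2.11 and -2.13 in Sham (0.62 ± 0.11, adjusted p = 0.0273). In both genes the groups were apart. Dmp1 and Dspp, defining genes of the osteocyte and the odontoblast, were not well above background on enough arrays to be tested.

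Of 7 tested mineralisation genes, Enpp1 fell and none rose (1 at an unadjusted p under 0.05). Enpp1 makes pyrophosphate, an inhibitor of mineral growth, and had levels of -3.65, -3.68 and -3.68 in AD and -2.62, -2.76 and -2.94 in Sham (-0.89 ± 0.11, adjusted p = 0.0183). The median of the list was 0.03. Phex and Fgf23, which osteocytes use to regulate phosphate, did not reach the 3 arrays needed for a test.

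Of 13 tested osteoblast regulators, 2 rose and 1 fell, with a median of 0.20. Tnfrsf11b, osteoprotegerin, the decoy receptor that restrains osteoclast formation, had levels of 1.0, 1.30 and 0.69 in AD and -0.22, 0.05 and -0.10 in Sham (1.08 ± 0.17, adjusted p = 0.0223). Twist1, a mesenchymal transcription factor that inhibits Runx2, had -2.69, -2.24 and -3.08 in AD and -1.28, -1.43 and -1.22 in Sham (-1.36 ± 0.22, adjusted p = 0.0222). In both genes the groups were apart.

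In the remaining lists the calls, by the brightest probe of each gene, were single genes. Plod1, a lysyl hydroxylase that prepares collagen for cross-linking, rose by 0.42 ± 0.09 (adjusted p = 0.0405), the only call among 13 tested genes of collagen maturation. Of 7 tested receptors for bone matrix, Itgb1, the β1 integrin chain, rose by 0.59 ± 0.09 (adjusted p = 0.0228) and Ddr2, a collagen-binding receptor kinase, fell by 0.80 ± 0.09 (adjusted p = 0.0183). A second probe of each of these 2 genes did not pass, with 0.42 for Itgb1 and 0.25, opposite in sign, for Ddr2. Itgb5, the β5 chain, was counted by its brighter probe, which did not pass (0.27 ± 0.13, adjusted p = 0.197). Its dimmer probe did pass (0.49 ± 0.12, adjusted p = 0.0484). Gpr158, described as a receptor for osteocalcin in the mouse hippocampus, did not pass by any of its 3 probes, with log2 differences of 0.10, -0.08 and 0.11 (adjusted p = 0.603, 0.545 and 0.533). Gprc6a, another proposed receptor, had no matched probe. Ggcx, the carboxylase that acts on osteocalcin, had a difference of -0.25 ± 0.11 (adjusted p = 0.189).

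**Figure D4:**
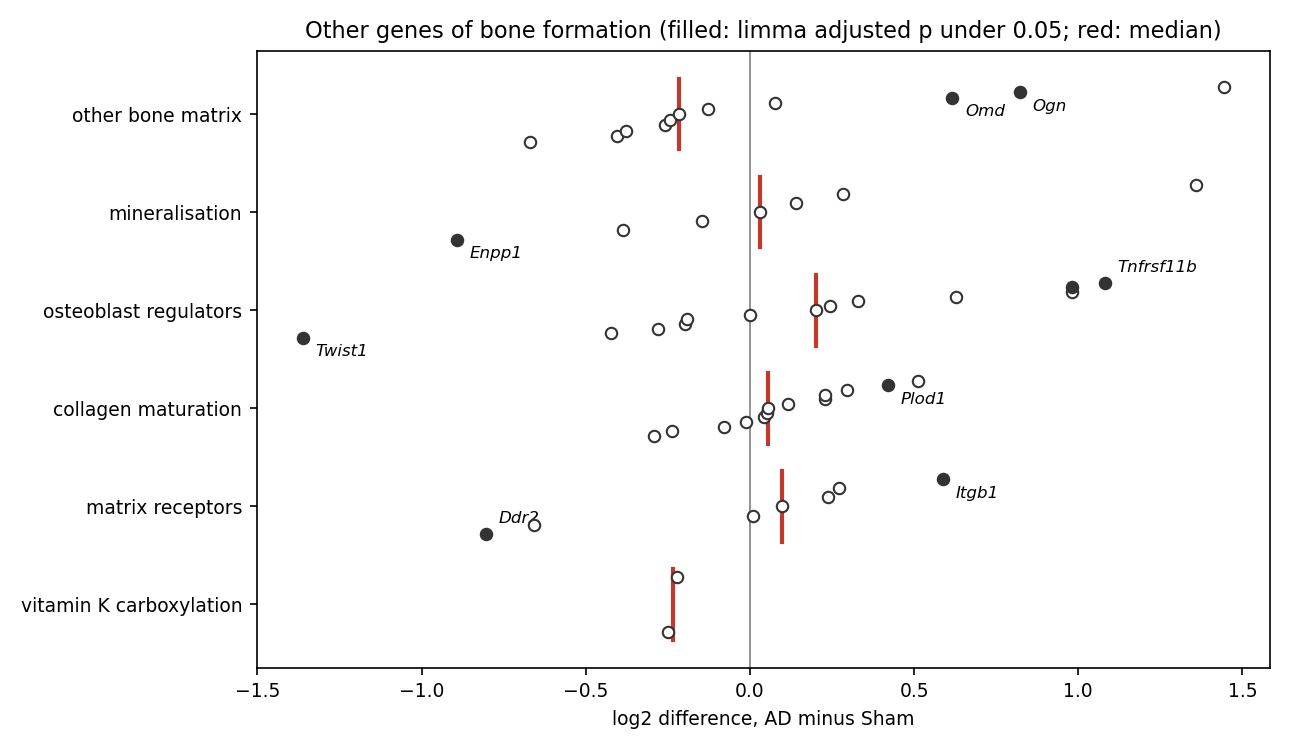
Log2 difference of AD minus Sham (x axis) for the 53 tested genes of 6 further lists of bone formation, 1 point per gene. Filled points passed limma's adjusted p of 0.05 (all but 1 of them with the gene's name), and red lines are list medians, which lie between -0.24 and 0.20.

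Markers of tissues that lie near or in bone were read beside Bglap and Ibsp. Of 5 tested cartilage markers, each counted by its brightest probe, 0 were called (0 at an unadjusted p under 0.05 and 0 with the methods' t-test). Comp, Matn1 and Cnmd did not reach the 3 arrays needed for a test. Col9a1 had a log2 difference of 0.33 by its brightest probe (limma adjusted p = 0.246). Its dimmer probes A_64_P074649 and A_43_P11136 had 0.82 and 0.63, with all AD levels above all Sham levels. Their limma p-values were 0.0140 and 0.0145 unadjusted, and 0.0757 and 0.0771 adjusted. Cnmd, chondromodulin of cartilage, was detected on 2 arrays of AD and 0 of Sham. Its signals were 65.6, 5.12 and 121 in AD and 3.83, 3.77 and 2.12 in Sham, at least 2.17-fold higher in AD. This bound, too, holds for the processed signal only. Cnmd was bright on AD replicates 1 and 3 and dark on AD replicate 2, where Bglap was highest. Col2a1, the main cartilage collagen, had levels of -2.10, -0.57 and -3.27 in AD and -3.54, -2.93 and -3.67 in Sham, with overlap between the groups and the highest value on AD replicate 2, as for Bglap (difference 1.40 ± 0.66, adjusted p = 0.207). The summed level of the cartilage list was 4.05 to 5.10 in AD and 3.30 to 4.38 in Sham. Of 4 tested osteoclast markers, Car2, a carbonic anhydrase that oligodendrocytes also make, rose by 0.55 ± 0.09 (adjusted p = 0.0254) and Ctsk, the collagen-cleaving protease cathepsin K, fell by 0.78 ± 0.14 (adjusted p = 0.0286), while Mmp9, Calcr, Atp6v0d2 and Itgb3, each well above background on at most 1 array, were not tested. Over all 8 osteoclast markers with a probe, the summed level was 9.55 to 9.90 in AD and 8.85 to 10.8 in Sham. Of 5 tested erythroid marrow markers, Klf1 fell by 0.54 ± 0.11 (adjusted p = 0.0322). Over all 7 with a probe, the sums were 0.41 to 0.73 in AD and 0.38 to 0.73 in Sham.

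Markers of choroid plexus and skeletal muscle had positive median deviations on every AD array. So did those of cartilage, with 0.32, 0.28 and 0.19 on AD replicates 1 to 3. The same held for endothelium and pericytes (0.27, 0.10 and 0.30) and for myeloid and lymphoid cells (0.94, 0.12 and 0.07). Of choroid plexus markers, 14 had a probe and 13 were tested. Over the 14, the median gene deviated from its Sham mean by 3.22, 0.50 and 4.06 on the AD arrays in the order of their replicates and by -0.42, -0.01 and 0.45 on the Sham arrays. The sums were 83.6 to 158 in AD and 28.5 to 105 in Sham, which overlap. These sums were mostly the signal of 1 bright gene, Ttr, with levels of 7.01, 6.32 and 6.86 in AD and 4.74, 5.83 and 6.66 in Sham. Their overlap is thus not that of the whole list. None of the 13 passed by limma or the methods' t-test (0 called), and 9 were higher at an unadjusted p under 0.05. For 15 skeletal muscle markers the deviation was 0.85, 0.54 and 1.78 in AD and 0.04, -0.06 and 0.07 in Sham, with sums of 11.7 to 18.4 in AD and 10.6 to 10.9 in Sham, and Myl11 (2.53 ± 0.59, adjusted p = 0.0454) and Myh1 (0.97 ± 0.20, adjusted p = 0.0350), both muscle myosin chains, were called higher. The choroid plexus and muscle lists were lowest among the AD arrays on replicate 2, where Bglap was highest and Ibsp lowest. Like the bone gene calls, the calls in these lists were made with all 6 arrays, and over all 22768 tested probes 0 were called with scan as a random block. A part of bone, cartilage, muscle or choroid plexus tissue in the Bglap and Ibsp values was not tested.

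**Figure D5:**
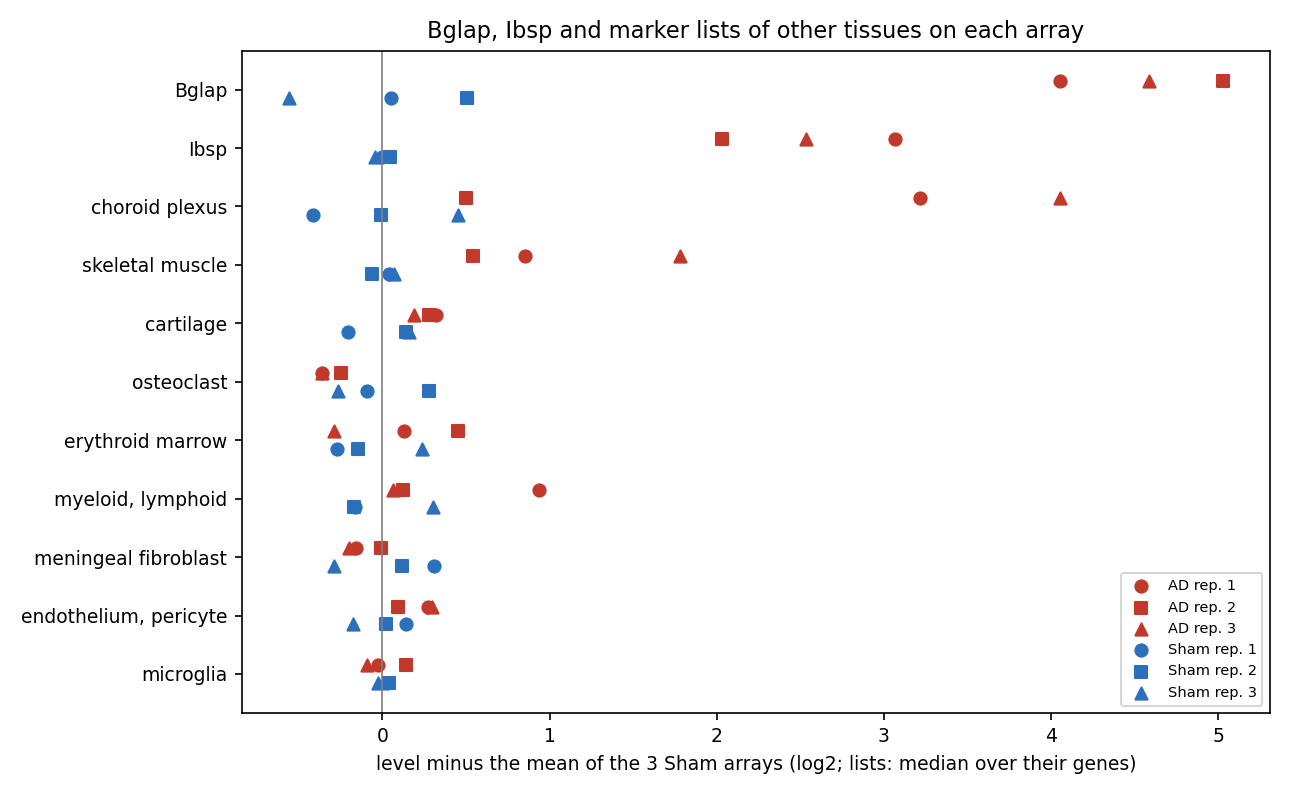
Deviation from the mean of the 3 Sham arrays (x axis, log2) of Bglap, Ibsp and the median of 9 marker lists of other tissues and cells, AD arrays in red above Sham arrays in blue, with 1 symbol per replicate. Bglap is highest on AD replicate 2 (5.03), where the choroid plexus median (0.50) is the lowest of the AD arrays.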

How the data were processed

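Hippocampal mRNA of 3 AD and 3 Sham tissue samples was hybridised to single-colour arrays, with groups taken from the sample labels. The deposited scanner files give an intensity per spot on a linear scale, from which the authors' software (Agilent Feature Extraction 11.0.1.1) had subtracted the background. The authors also deposited a table of log2 values, whose scaling and centring are not stated in the sources used here. Its columns have medians of 6.57. Its columns named AD 2 and AD 3 matched scanner arrays AD 3 (r = 0.994) and AD 2 (r = 0.999), an exchange within 1 group that leaves group comparisons as they are, and replicate numbers are those of the scanner files. The array design uses another build than the RefSeq tables (GRCr8), so positions of probes are not given, and promoter windows and gene order are those of GRCr8.

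Control spots and outlier spots (400 to 559 per array) were dropped, no spot was saturated (0 on each array), log2 signals of spots of a probe were averaged, and each array's 75th percentile was subtracted. Accessions were matched to RefSeq, which named 18005 of 30367 probes (59.3%). Probes well above background on at least 3 arrays were compared between AD and Sham with limma 3.58.1 in R 4.3.3 (lmFit and eBayes, no covariates, two-sided, Benjamini-Hochberg, threshold 0.05), after the script had been tested on simulated data. For gene lists, the probe with the highest mean signal stood for a gene. Correction by normexp used the median foreground and the median local background of each spot, with an offset of 50. The number of arrays limits the precision.

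The member genes and all lists were chosen with earlier results of these data known. Named are all 9 genes with every probe, up to 4 called genes of each other list by size of change (in lists without calls, up to 2 tested genes), the osteocalcin receptors and carboxylase, the neighbours of Bglap, and the 5 named probes most like Bglap and Col1a1. Postn was named after its values were seen, as were Mepe, Dmp1, Cnmd and genes given only as untested. Some genes taken by the rule are not described, and 1 called osteoblast regulator is counted but not reported here. The alternatives were other background corrections, scalings and filters, the authors' table, leaving out each array, scan or replicate number as a block (with statmod 1.5.0), and the methods' t-test.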

Additional observations from a re-analysis of the deposited data

How the results depend on the processing

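Bglap (2.20 to 4.81) and Ibsp (0.54 to 2.80), the probes called in the reported fit, kept the sign of their log2 differences under all alternatives that could fit them. Col1a2 (-0.70 to 0.06), Sp7 (-0.20 to 0.17) and Alpl (-0.14 to 0.01) took both signs, and of these Col1a2 was called lower without Sham replicate 3 and with scan day as a fixed block. Of the 9 probes, 1 was called higher with normexp correction, and 0 when the detection filter required all 6 arrays, which removes Bglap and Ibsp. With scan as a random block 0 were called higher or lower, and of the other bone genes 0 higher and 0 lower. Leaving out 1 array gave 0 to 2 probes of the 9 higher and 0 to 3 lower, and 0 to 9 other bone genes higher and 0 to 6 lower, with calls only when Sham replicate 3 was the array left out. Scan day as a fixed block, which equals that comparison, gave 3 of the 9 probes lower and 6 other bone genes lower. Replicate numbers did not pair the samples (correlation of deviations 0.03, 0.07 and 0.14), and with a replicate block 0 of the 9 probes and 0 other bone genes were called in either direction. Without the filter on dim probes 0 other bone genes were higher. The methods' t-test gave 2 other bone genes higher after adjustment, and 1 higher and 1 lower at a fold change of at least 2. Causes of these shifts were not tested. Over all tested probes the split was 946 higher and 1912 lower, against 1422 and 1249 with the percentile over detected probes, 688 and 2148 with median scaling, and 283 and 1361 with normexp. It was 0 and 0 with scan as a random block and with a replicate block, and 0 to 2 higher and 0 lower without any 1 array other than Sham replicate 3, so calls were lost over all probes and not in the bone genes alone. The 9 called other bone genes kept their direction under all 17 alternatives. Levels of Bglap and Ibsp in Sham lie at the limit of detection, so their folds are the least certain values here.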

Other observations

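Genes whose pattern over the 6 arrays was most like that of Bglap were Acbd3 (r = 0.998), Hrh1 (0.997), Mast2 (0.996), Lpar1 (0.995) and Pip4k2a (0.994). Their log2 differences were small beside that of Bglap, from 0.13 for Acbd3 to 0.72 for Lpar1, a receptor for lysophosphatidic acid. Hrh1, a histamine receptor, had levels of -4.63, -4.49 and -4.59 in AD and -5.10, -5.04 and -5.23 in Sham. For the Col1a1 probe A_64_P040278, the most alike were Trmt12 (r = 0.997), Stk32b (0.993), Ccl3 (0.990), Prss53 (0.990) and Kcnk6 (0.987). Ccl3, a chemokine of activated microglia and macrophages, had levels of -4.59, -4.58 and -4.45 in AD and -0.48, -1.36 and -4.76 in Sham, high on Sham replicates 1 and 2 and low on Sham replicate 3, as Spp1 was. With 6 arrays in 2 groups, many probes reach such correlations, and they are descriptions only.

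Postn, periostin, a matrix protein of periosteum and of fibroblasts, had levels of -4.13, -4.28 and -4.23 in AD and -2.08, -2.74 and -7.03 in Sham. It was again high on Sham replicates 1 and 2, and not well above background on 1 Sham array.

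Of 12 tested endothelial and pericyte markers, 3 rose and 0 were called lower (1 at an unadjusted p under 0.05, 0 with the methods' t-test). Abcc9, a potassium channel subunit of pericytes, had levels of -2.28, -2.37 and -2.14 in AD and -3.11, -3.23 and -3.41 in Sham (log2 difference 0.99 ± 0.12, limma adjusted p = 0.0183). Vtn rose by 0.44 ± 0.08 (adjusted p = 0.0284) and Cldn5, the tight junction claudin of brain endothelium, by 0.42 ± 0.09 (adjusted p = 0.0341). A second tested Abcc9 probe had a difference of 0.40 (adjusted p = 0.286). Of 4 tested myeloid and lymphoid markers Cd3e, a chain of the T cell receptor complex, had levels of -4.76, -4.92 and -4.46 in AD and -7.80, -7.20 and -6.09 in Sham. It was at least 2.10-fold higher in AD, a bound that holds for the processed signal only. It was flagged well above background on 3 arrays of AD and 0 of Sham, and so passed the filter on dim probes only through AD. The summed level of that list was 0.44 to 0.69 in AD and 0.48 to 0.67 in Sham. Of 10 tested microglial markers 0 were called (0 higher and 1 lower at an unadjusted p under 0.05, 0 with the methods' t-test). Their summed level was 27.1 to 32.5 in AD and 33.3 to 34.1 in Sham, without overlap. Yet 5 of the 10 were higher in AD on average, and the median log2 difference was -0.01. Of 12 hippocampal neuron markers, Bhlhe22, a transcription factor of excitatory neurons, fell by 0.71 ± 0.15 (adjusted p = 0.0353). The summed level of the 12 was 65.5 to 71.3 in AD and 79.2 to 94.2 in Sham, again without overlap. Bhlhe22, with a mean level of 4.06 in AD and 4.77 in Sham, weighs heavily in this sum. Of the 12, 6 were higher in AD on average, and the median log2 difference was -0.01.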
